A study of Homo sapiens with 9 samples.

Results

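The genes described here are 10 parts of the circuit through which cells read insulin and related growth factors. They are the transcription factors FOXO1, FOXO3 and FOXO4, the receptors INSR and IGF1R, the adaptors IRS1 and IRS2, the PI3K inhibitor PIK3IP1 and the sestrins SESN1 and SESN3. They were found by gene symbol: 34 of the 54675 probe sets of the array were annotated to exactly 1 of these symbols, and all 10 genes had at least 1. A further 3 probe sets that name FOXO3 together with its close copy FOXO3B were left out, because their signal cannot be assigned to 1 gene.

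RNA came from MCF10A, an immortalized and non-tumorigenic human mammary epithelial line, and was measured on 9 one-colour Affymetrix expression arrays. Its maintenance medium held insulin (10 microgram/ml), cholera toxin (100 ng/ml), hydrocortisone (0.5 microgram/ml), EGF (20 ng/ml) and horse serum (5%). All cells were infected with a pBabe retrovirus and then held in an assay medium with 2% horse serum and without EGF, and the labels do not say whether it still held insulin. The vector group (n = 3) carried the empty virus and the ERBB2 group (n = 3) pBabe-ErbB2, coding for the receptor kinase ERBB2. Cells of the EGF group (n = 3) carried the empty virus and received 50 ng/ml of EGF during the last 2 h. The labels call the replicates biological without saying whether infections were separate. The p-values therefore rest on the spread among these arrays, which may be partly technical.

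Insulin and IGF receptors are tyrosine kinases that phosphorylate IRS adaptors, which recruit PI3K and so switch on the kinase AKT. AKT phosphorylates FOXO factors, which then leave the nucleus; without growth factor they return and transcribe genes of quiescence, catabolism and stress defence. Among genes known to be FOXO-induced are INSR, IRS2 and the sestrins, so that loss of PI3K output raises the parts that sense insulin, a loop known in breast epithelium as feedback from PI3K to its receptors. Arrays measure RNA, and neither phosphorylation nor the location of FOXO protein was measured.

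Values are the authors' linear MAS5 signals, and differences are given in log2(signal + 16), a scale that understates the change of dim genes. The error after ± is an SD for a signal and an SE for a log2 difference, and a difference was called when its limma p-value, adjusted by Benjamini-Hochberg over 32769 probe sets, was under 0.05. Median signals lay between 19.85 and 20.18 on vector arrays, 17.94 and 20.06 on ERBB2 arrays and 15.57 and 16.9 on EGF arrays, and 9 of 9 arrays were most similar to one of their own group. ERBB2 itself does not settle the label of its group. Its brightest probe set read 174.0 in vector, 98.83 in the ERBB2 arrays and 104.1 with EGF. The ERBB2 arrays differed from vector there by -0.71 on the log2 scale (limma adjusted p = 0.00676). A dimmer one read 12.62, 35.59 and 15.43 in the same order (0.89, limma adjusted p = 0.00882). The third read 14.78, 17.12 and 15.01 and was not called (0.10, limma adjusted p = 0.82). The group is therefore called "labelled ERBB2". Of 13 mammary epithelial markers 10 were measured, and all 10 passed the filter on low values, with mean signals between 880.2 and 12850. Against vector 3 of the 10 rose and 5 fell in labelled ERBB2, where 20.8% of all genes rose and 25.0% fell. With EGF 5 rose and 3 fell, where 17.2% of all genes rose and 18.9% fell. The summed signal of the list was 38500 to 44130 in vector, 33660 to 36180 in labelled ERBB2 and 41590 to 47100 with EGF, and the part of these changes in the results was not tested. Of 7 fibroblast markers 4 passed. The summed signal of all 7 was 1359 to 1540 in vector, 414.7 to 599.5 in labelled ERBB2 and 528.8 to 581.4 with EGF. Most of it was DCN, whose mean signal over the arrays was 719.0 and whose part in the results was not tested. None of 3 adipocyte markers passed, and 2 of 4 measured blood cell and 2 of 4 endothelial markers did. Fewer cells of a type and less RNA per cell cannot be told apart in such samples.

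Each gene is read from its brightest probe set, and on that basis all 10 passed the filter. In labelled ERBB2 against vector 7 of the 10 genes fell and none rose, where 25.0% of 13726 genes fell and 20.8% rose. FOXO1, FOXO3, INSR, IGF1R, IRS2, SESN1 and SESN3 were the 7, and FOXO4, IRS1 and PIK3IP1 were not called. With EGF 8 of the 10 fell and 1, IRS1, rose, where 18.9% of genes fell and 17.2% rose. FOXO4 was not called. The median log2 difference of the 10 genes was -1.21 in labelled ERBB2 and -0.65 with EGF, where the median of all genes was -0.07 and -0.10. Both comparisons use the same 3 vector arrays, so they are not independent of each other. In the ERBB2 comparison the groups did not overlap for 7 of the 10 genes, against 52.7% of all genes, and with EGF for 9 of the 10, against 48.7%. A sign of RNA integrity and labelling, the 5'/3' ratio of the ACTB control probe sets, also set the labelled ERBB2 arrays apart. It was 0.737 ± 0.051 there, 0.379 ± 0.056 in vector and 0.444 ± 0.064 with EGF. The same ratio of GAPDH did not set them apart, at 0.869 ± 0.032, 0.846 ± 0.034 and 0.812 ± 0.045 in that order. The part of either ratio in the results was not tested.

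**Figure D1:**
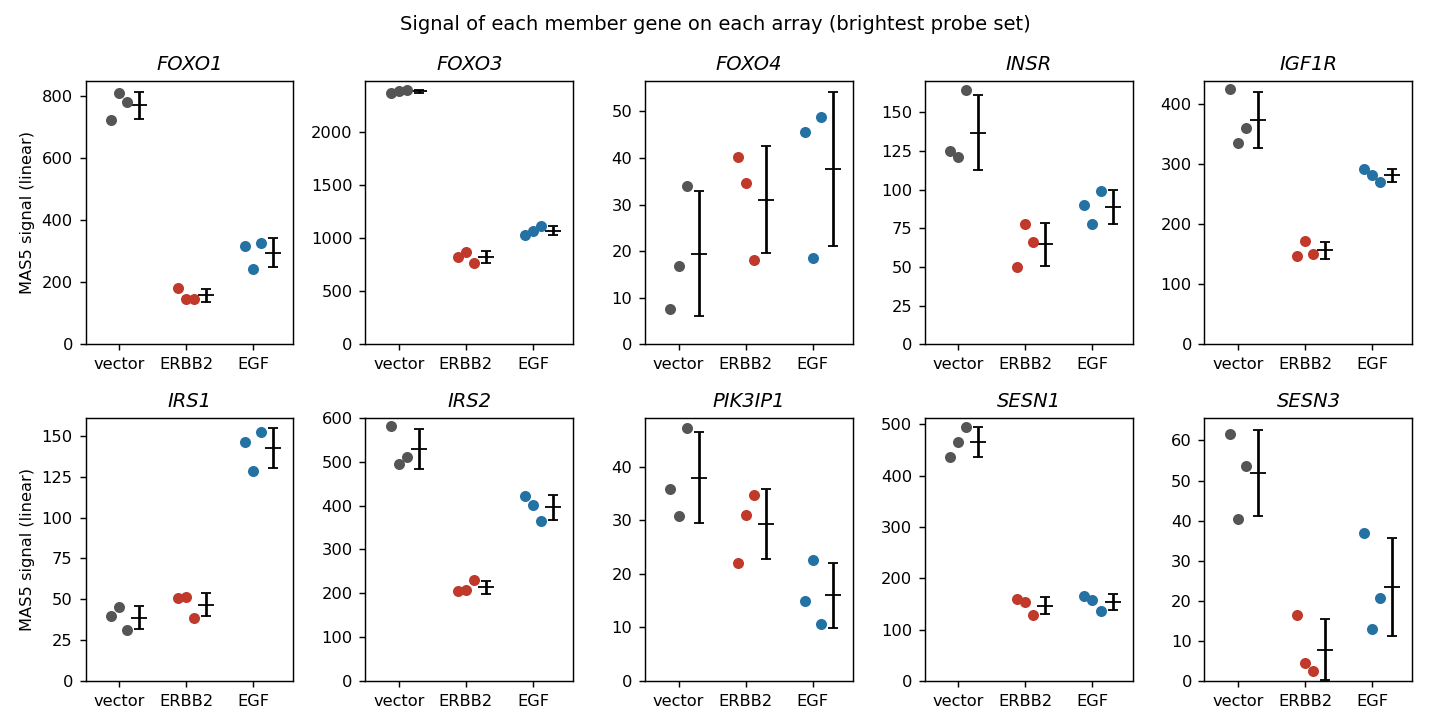
Linear MAS5 signal (vertical axes, each starting at 0) of the brightest probe set of each of the 10 genes on the 3 vector (grey), 3 labelled ERBB2 (red) and 3 EGF (blue) arrays; the bar beside each group is its mean ± SD. FOXO1, FOXO3, INSR, IGF1R, IRS2, SESN1 and SESN3 are highest in vector, IRS1 is highest with EGF, and the FOXO4 groups overlap.

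FOXO1, the FOXO factor best known as the effector of insulin in liver and endothelium, fell in both comparisons with vector. Its signals were 722.1, 808.2 and 780.4 on the vector arrays, 179.9, 144.9 and 146.2 on the labelled ERBB2 arrays and 316.2, 241.4 and 327.4 on the EGF arrays. The 3 groups did not overlap, with vector highest, EGF between and labelled ERBB2 lowest. The mean signal in labelled ERBB2 was 20.4% of that in vector, and with EGF 38.3%. FOXO1 fell in labelled ERBB2 by 2.19 ± 0.12 on the log2 scale (SE; limma adjusted p = 2.215e-11), a 4.56-fold difference. With EGF it fell by 1.35 ± 0.12 (limma adjusted p = 5.428e-08), 2.55-fold. Set directly against each other, labelled ERBB2 was lower than EGF by a log2 difference of -0.84 ± 0.12 (limma adjusted p = 3.003e-05). A second FOXO1 probe set read 571.8 ± 19.1 in vector, 150.4 ± 26.2 in labelled ERBB2 and 312.8 ± 19.4 with EGF, with log2 differences of -1.83 and -0.84 from vector. The order of the groups was the same on both, and the fall with EGF was smaller on the second. Averaging all FOXO1 probe sets, the dim one included, gave -1.36 in labelled ERBB2 and -0.77 with EGF, both still called. The third, with mean signals between 11.36 and 13.62, was not called in any comparison.

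FOXO3, the FOXO factor tied to stress resistance and apoptosis, had the smallest SEs of the 10. Its signals were 2369, 2386 and 2398 in vector, 825.8, 871.0 and 764.7 in labelled ERBB2 and 1027, 1064 and 1115 with EGF. Again no groups overlapped. The fall was 1.52 ± 0.08 on the log2 scale in labelled ERBB2 (limma adjusted p = 4.851e-12), 2.87-fold. With EGF the log2 difference was -1.15 ± 0.08 (limma adjusted p = 7.777e-10), 2.21-fold, and labelled ERBB2 was lower than EGF by a difference of -0.38 ± 0.08 (limma adjusted p = 0.0009306). The other 2 probe sets past the filter were called lower in all 3 comparisons. In labelled ERBB2 they differed from vector by -1.53 and -1.59, and with EGF by -1.17 and -0.89. Their calls between labelled ERBB2 and EGF, -0.36 and -0.70, ended without a variance trend in the limma fit (adjusted p = 0.05081 and 0.05066, the highest over 19 alternatives, with 0.0007826 and 0.0003522 the lowest). The remaining FOXO3 probe set did not pass the filter.

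FOXO4, the X-linked member of the family, was dim and did not follow the other 2. Its 1 probe set read 7.597, 16.79 and 34.05 in vector, 40.18, 34.71 and 18.17 in labelled ERBB2 and 45.5, 18.6 and 48.75 with EGF. All 3 groups overlapped. The log2 difference was 0.44 in labelled ERBB2 (95% interval -0.19 to 1.08, limma adjusted p = 0.2754) and 0.61 with EGF (-0.03 to 1.25, limma adjusted p = 0.148). The EGF difference was called if vector replicate 3 (0.893, limma adjusted p = 0.04881) or EGF replicate 2 (0.899, limma adjusted p = 0.0447) was dropped. Over 19 alternatives the adjusted p ran from 0.0447 to 0.47. Without detection calls it is unknown which of these signals exceed background.

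The promoters of the members were searched for letters that forkhead factors are known to bind. RefSeq windows (GRCh38.p14), each of 250 bases before and 50 after a start site, were available for all 10 genes, 16 windows in all. Both strands were searched for GTAAACA, the core of the FOXO site, and for CAAAACA, the letters of the insulin response element; both hold AAACA as their last 5 letters. The first was in the windows of FOXO4 and PIK3IP1, and in 3.42% of all 35116 windows. The second was in that of IRS2 alone, and in 4.92% of all. No window of FOXO1, FOXO3, INSR, IGF1R, IRS1, SESN1 or SESN3 held either, which says only that these letters are not in those windows. The shared letters by themselves were in 12 of the 16 windows, and in 44.4% of all. Of 2 further motifs, the E-box CACGTG was in the window of IRS1 (7.26% of all windows) and the AP-1 site TGACTCA in 1 of 4 windows of FOXO3 (4.95% of all). The letters before FOXO1, shown as a promoter with the shared letters alone, are given with AAACA in capitals (chr13:40666642-40666891, minus strand, the 250 bases that end at the start site), followed by 30 bases around the match of FOXO4 (chrX:71095863-71095892, plus strand) with GTAAACA in capitals and around that of FOXO3 (chr6:108588659-108588688, plus strand) with the AP-1 match, read on the other strand, in capitals.
FOXO1: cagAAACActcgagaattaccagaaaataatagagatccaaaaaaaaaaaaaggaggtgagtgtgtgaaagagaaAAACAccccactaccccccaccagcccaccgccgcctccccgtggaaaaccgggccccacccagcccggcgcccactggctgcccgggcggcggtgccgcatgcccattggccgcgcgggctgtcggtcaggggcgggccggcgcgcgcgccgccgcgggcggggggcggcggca
FOXO4: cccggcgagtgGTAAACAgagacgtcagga
FOXO3: tgtttttgtggTGAGTCAagctgcagtgcc

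INSR, the insulin receptor, fell in labelled ERBB2. Its signals were 124.9, 120.9 and 164.6 in vector, 49.87, 77.93 and 65.85 in labelled ERBB2 and 89.81, 77.55 and 99.11 with EGF. Vector lay above both other groups, and these 2 overlapped, since 1 labelled ERBB2 array was above the lowest EGF array. The fall was 0.93 ± 0.17 on the log2 scale in labelled ERBB2 (limma adjusted p = 0.000194), and averaging all INSR probe sets gave -0.52. With EGF the log2 difference was -0.54 ± 0.17 (limma adjusted p = 0.02291), and the call was lost on dropping vector replicate 3 (-0.411, adjusted p = 0.1316) or EGF replicate 2 (-0.458, adjusted p = 0.09636), with quantile normalization (adjusted p = 0.05245), with equal array medians (0.1256) and with the mean of all INSR probe sets (0.1196). The adjusted p ran from 0.01272 to 0.1316 over 20 alternatives. Labelled ERBB2 and EGF differed by -0.39 (95% interval -0.75 to -0.03, limma adjusted p = 0.1119), and the call was made with equal array medians (adjusted p = 0.04169, the lowest over 20 alternatives, with 0.3594 the highest). Of 5 INSR probe sets past the filter none was called higher, and 1 differed upward in labelled ERBB2 without a call (0.47, limma adjusted p = 0.276). In labelled ERBB2 3 were called lower, and with EGF 1 was. The dimmest of the 3 (-0.62, limma adjusted p = 0.03432) lost its call under 9 of 19 alternatives, among them dropping vector replicate 1 (-0.504, adjusted p = 0.1362) or 2 (-0.612, 0.0757) or labelled ERBB2 replicate 2 (-0.658, 0.05003) or 3 (-0.517, 0.1059).

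IGF1R, the receptor for IGF1 and IGF2, also fell, and more in labelled ERBB2 than with EGF on its brightest probe set. Its signals were 424.0, 334.2 and 360.1 in vector, 146.2, 171.8 and 150.3 in labelled ERBB2 and 291.9, 281.1 and 270.7 with EGF. No groups overlapped. The log2 difference from vector was -1.17 ± 0.12 in labelled ERBB2 (limma adjusted p = 7.88e-08), 2.25-fold, or -0.56 on averaging all IGF1R probe sets, and -0.38 ± 0.12 with EGF (limma adjusted p = 0.01688). The call with EGF was lost on dropping vector replicate 1 (-0.289, adjusted p = 0.09603) or EGF replicate 3 (-0.356, adjusted p = 0.06661), without a variance trend (0.05328) and with equal array medians (0.205), and 0.01004 was its lowest adjusted p over 20 alternatives. Labelled ERBB2 was lower than EGF by a difference of -0.79 ± 0.12 (limma adjusted p = 3.403e-05), and this call ended with the mean of all IGF1R probe sets (-0.159, adjusted p = 0.357, with 1.113e-05 the lowest over 20 alternatives). Of 5 probe sets past the filter 3 were called lower in labelled ERBB2, 2 with EGF and 1 in labelled ERBB2 against EGF. The second brightest read 167.3 ± 38.2 in vector and 123.4 ± 3.62 in labelled ERBB2, a log2 difference of -0.38 whose call ended under 15 of 19 alternatives (adjusted p between 0.01951 and 0.2729), including the loss of any 1 array other than vector replicate 2. IGF1R probe sets therefore disagreed on the size of the change.

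IRS1 and IRS2, the adaptors that link both receptors to PI3K, moved in opposite directions with EGF. IRS2, the FOXO-induced one, read 581.2, 495.5 and 511.6 in vector, 204.4, 206.5 and 230.7 in labelled ERBB2 and 421.6, 401.6 and 364.5 with EGF. The 3 groups did not overlap, with EGF nearer to vector. IRS2 fell in labelled ERBB2 by 1.25 ± 0.10 on the log2 scale (limma adjusted p = 7.825e-09), 2.37-fold. With EGF the difference was -0.40 ± 0.10 (limma adjusted p = 0.0057), a call that ended with equal array medians (-0.244, adjusted p = 0.09496, the highest of 20 alternatives, with 0.002149 the lowest). Labelled ERBB2 was lower than EGF by a difference of -0.84 ± 0.10 (limma adjusted p = 4.706e-06). The other IRS2 probe set was called lower in labelled ERBB2 (-0.89, limma adjusted p = 0.0004455) and with EGF (-0.50, limma adjusted p = 0.04239), the second a call that ended under 12 of 19 alternatives (adjusted p between 0.01602 and 0.1986). Those include dropping any vector array (-0.42 to -0.55) or EGF replicate 1 (-0.357) or 2 (-0.472).

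IRS1 was the only one of the 10 genes with a called rise, and this was with EGF. It read 39.9, 45.08 and 31.07 in vector, 50.55, 51.16 and 38.51 in labelled ERBB2 and 146.4, 128.8 and 152.7 with EGF. All EGF arrays lay above all others, and vector and labelled ERBB2 overlapped. With EGF the log2 difference was 1.54 ± 0.18 (limma adjusted p = 1.161e-06), 2.91-fold, and 1.01 with 64 in place of 16 added before log2. The mean signal was 369.0% of that in vector. In labelled ERBB2 it was 0.20 (95% interval -0.17 to 0.57, limma adjusted p = 0.4046). The direct difference, labelled ERBB2 minus EGF, was -1.34 ± 0.18 (limma adjusted p = 9.182e-06). A second, dimmer IRS1 probe set went from 14.79 ± 2.54 to 41.85 ± 8.77 with EGF (0.90, limma adjusted p = 0.006129) and read 15.58 ± 3.05 in labelled ERBB2. On it labelled ERBB2 was lower than EGF by -0.87 (limma adjusted p = 0.009711), a call that ended without EGF replicate 1 (adjusted p = 0.06564, the highest of 18 alternatives, with 0.003402 the lowest).

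The windows of the adaptors held different motifs. That of IRS2 is shown for the 250 bases before its start site (chr13:109786584-109786833, minus strand), with the insulin response letters, on the other strand and 40 bases before the start, in capitals. That of IRS1 is shown for its last 30 bases (chr2:226799771-226799800, minus strand), with the E-box, 35 bases after the start site, in capitals.
IRS2: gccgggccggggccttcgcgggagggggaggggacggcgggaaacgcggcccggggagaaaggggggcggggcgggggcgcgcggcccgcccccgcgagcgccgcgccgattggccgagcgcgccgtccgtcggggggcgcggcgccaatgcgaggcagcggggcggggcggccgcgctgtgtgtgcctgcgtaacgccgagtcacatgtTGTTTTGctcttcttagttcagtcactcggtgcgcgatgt
IRS1: gcgcggaggctccgtCACGTGtttttctcc

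PIK3IP1, a membrane protein that inhibits the catalytic subunit of PI3K, was dim and lowest with EGF. Its brightest probe set read 35.79, 30.73 and 47.24 in vector, 21.99, 30.93 and 34.75 in labelled ERBB2 and 14.9, 22.49 and 10.53 with EGF. EGF lay below vector on every array, and labelled ERBB2 overlapped both. With EGF the log2 difference was -0.76 ± 0.24 (limma adjusted p = 0.02096). Dropping vector replicate 3 (-0.639, adjusted p = 0.09952), EGF replicate 1 (-0.743, adjusted p = 0.05296) or EGF replicate 3 (-0.633, adjusted p = 0.09521) ended that call. So did testing without the filter (0.06625), with quantile normalization (0.0695), with equal array medians (0.06722) and with the mean of all its probe sets (-0.151, adjusted p = 0.6718). Its lowest adjusted p over 19 alternatives was 0.01098. The difference was -1.24 with 1 and -0.35 with 64 added before log2, called both times. In labelled ERBB2 the difference was -0.25 (95% interval -0.75 to 0.25, limma adjusted p = 0.4439). Neither of its other 2 probe sets was called in any comparison. Its FOXO core, read on the other strand, lies 16 bases after the start site of 1 of its 2 windows, shown in capitals within 30 bases (chr22:31292454-31292483, minus strand).
PIK3IP1: taaagagaggcTGTTTACcagaacagcata

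SESN1 and SESN3, sestrins that restrain the growth kinase mTORC1 when nutrients or growth factors are short, both fell. SESN1 read 437.1, 465.7 and 494.8 in vector, 159.4, 153.3 and 128.0 in labelled ERBB2 and 166.0, 158.7 and 136.3 with EGF. Vector stood apart, and labelled ERBB2 and EGF overlapped on nearly the same values. SESN1 fell by 1.57 ± 0.12 on the log2 scale in labelled ERBB2 (limma adjusted p = 2.456e-09), 2.97-fold, and by 1.51 ± 0.12 with EGF (limma adjusted p = 1.057e-08), 2.84-fold. The difference between labelled ERBB2 and EGF was -0.06 (95% interval -0.31 to 0.19, limma adjusted p = 0.7827). SESN1 is measured by 1 probe set.

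SESN3 was dim. It read 61.5, 40.36 and 53.72 in vector, 16.53, 4.491 and 2.386 in labelled ERBB2 and 36.8, 12.92 and 20.77 with EGF. Vector lay above both other groups, which overlapped. The log2 difference was -1.55 ± 0.28 in labelled ERBB2 (limma adjusted p = 0.0001638) and -0.81 ± 0.28 with EGF (limma adjusted p = 0.03516). The size depends on the number added before log2: in labelled ERBB2 it was -2.92 with 1 and -0.69 with 64, called both times, and with EGF -0.41 with 64. The mean signals were 51.86 ± 10.7 in vector, 7.803 ± 7.63 in labelled ERBB2 and 23.5 ± 12.2 with EGF. The call with EGF ended under 9 of 19 alternatives, among them leaving out vector replicate 1 (-0.711, adjusted p = 0.1255), vector replicate 3 (-0.787, 0.09429), EGF replicate 2 (-0.611, 0.1681) or EGF replicate 3 (-0.784, 0.09311), and its lowest adjusted p was 0.01478. Labelled ERBB2 and EGF differed by -0.73 (limma adjusted p = 0.06706). That difference was called under 6 of 19 alternatives, among them without labelled ERBB2 replicate 1 (-0.98, adjusted p = 0.02041), without EGF replicate 2 (-0.934, adjusted p = 0.03588), with equal array medians (adjusted p = 0.03242) and with the replicate number as a block (adjusted p = 0.03934), and its adjusted p reached 0.3. The other 6 SESN3 probe sets did not pass the filter.

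**Figure D2:**
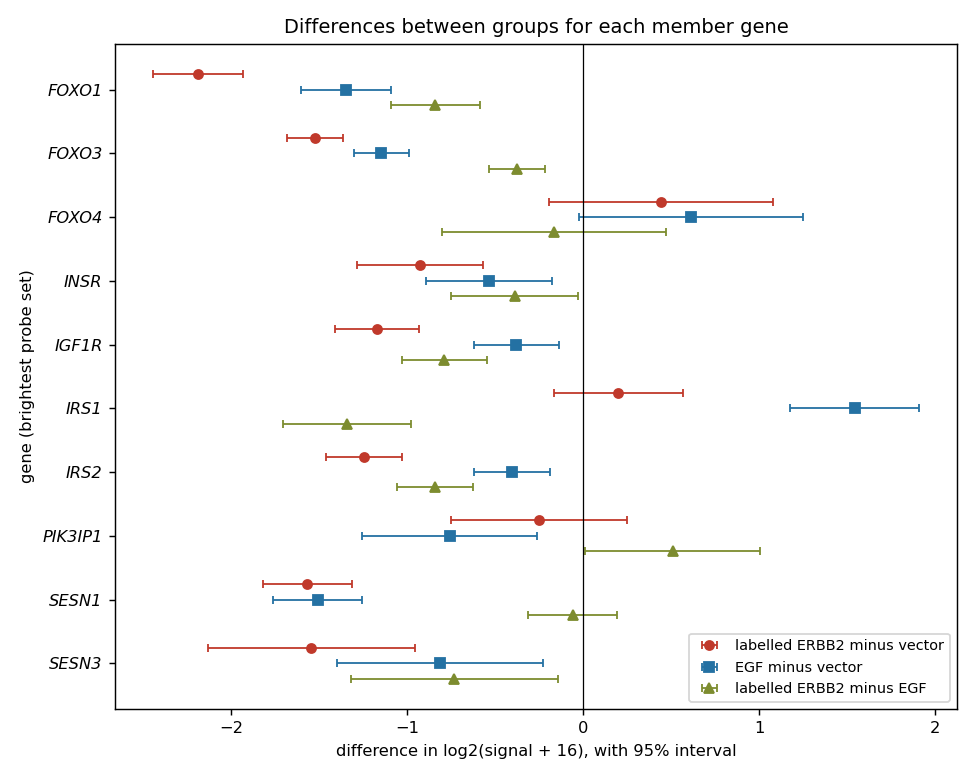
Difference in log2(signal + 16) (horizontal axis) for the brightest probe set of each of the 10 genes, in labelled ERBB2 minus vector (circles), EGF minus vector (squares) and labelled ERBB2 minus EGF (triangles), with 95% intervals from the limma fit. FOXO1 lies farthest left at -2.19, IRS1 is far right with EGF only at 1.54, and the SESN1 triangle lies at -0.06.

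Labelled ERBB2 and EGF were then compared directly, to show where a retrovirus for a receptor and 2 h of ligand left these genes at different levels. The groups differ in the virus and in EGF, so the kind of stimulus and how long it lasted cannot be told apart. FOXO1, FOXO3, IGF1R, IRS1 and IRS2, 5 of the 10 genes, were called lower in labelled ERBB2 than with EGF and none was called higher, where 28.8% of genes were called in either direction. The groups did not overlap for 5 of the 10 genes, these same 5, which is near the 43.0% of all genes. For 4 of them EGF lay between vector and labelled ERBB2, and for IRS1 vector and labelled ERBB2 were near each other and EGF alone stood apart. INSR, SESN3, FOXO4, PIK3IP1 and SESN1 were not called. The 95% intervals are not adjusted for the number of tests. Those of PIK3IP1 (0.01 to 1.01), INSR (-0.75 to -0.03) and SESN3 left out 0 without a call. For PIK3IP1 the limma adjusted p was 0.1399. For the sestrins, the 95% interval of labelled ERBB2 minus EGF ran from -0.31 to 0.19 for SESN1 and from -1.32 to -0.14 for SESN3.

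By probe set, 26 of the 34 passed the filter and 8 did not, namely 6 of SESN3 and 1 each of FOXO3 and IRS1. In labelled ERBB2 15 of the 26 were called lower and none higher, where 21.0% of all probe sets were lower and 17.7% higher. With EGF 13 were lower and 2 higher, both of IRS1, where 15.9% of all were lower and 12.9% higher. In labelled ERBB2 against EGF 9 were lower and none higher, where 12.2% of all were lower and 11.6% higher. No gene had probe sets called in opposite directions in any of the 3 comparisons. Probe sets of 1 gene share its RNA and are not replicates of each other.

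**Figure D3:**
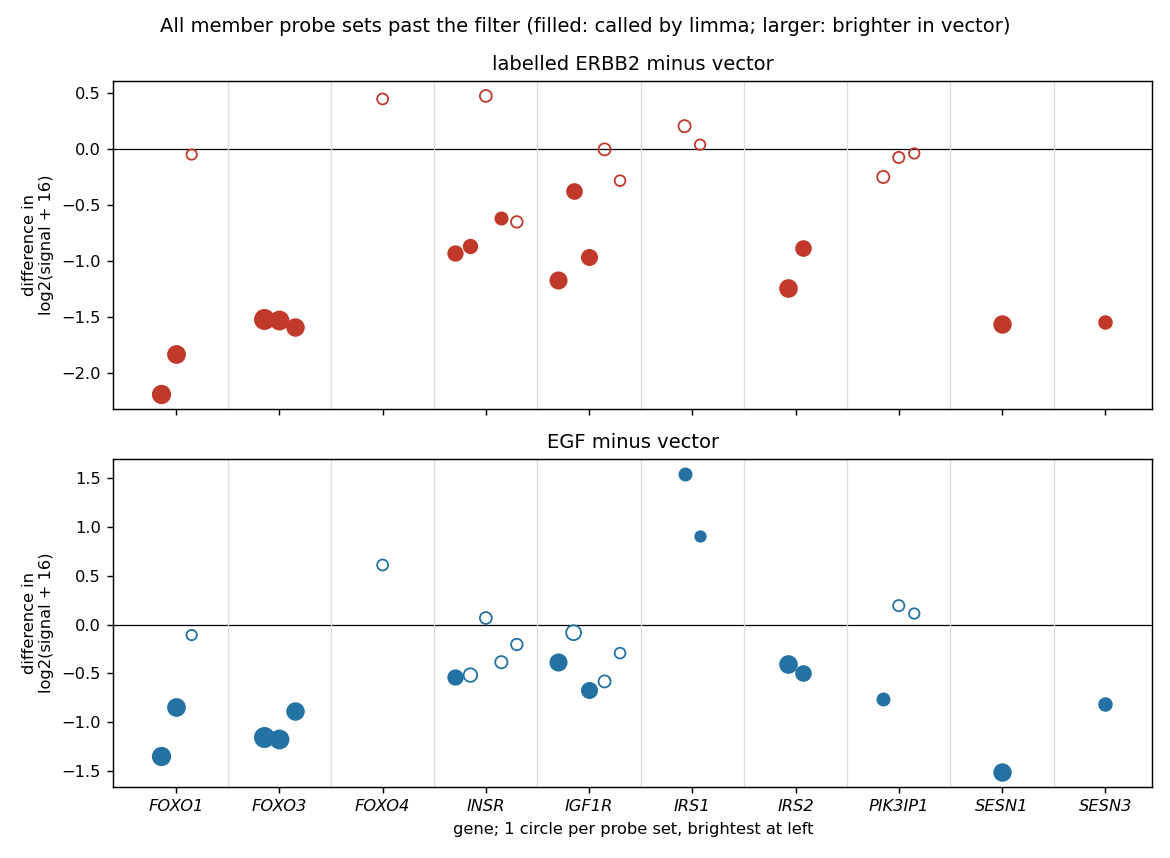
Difference in log2(signal + 16) from vector (vertical axes) for each of the 26 probe sets past the filter, grouped by gene with the brightest at left; upper panel labelled ERBB2, lower panel EGF. Filled circles were called by limma and open ones were not, and larger circles are brighter in vector. In the upper panel the 3 FOXO3 circles lie between -1.52 and -1.59, and in the lower panel the 2 IRS1 circles are the only filled ones above 0.

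The genes around these members were read from 5 lists. Over all genes 45.8% were called in labelled ERBB2 against vector, 36.1% with EGF and 28.8% between labelled ERBB2 and EGF. Shares by direction are given above, for labelled ERBB2 against EGF by probe set only (12.2% lower and 11.6% higher). Of 24 known FOXO target genes outside the members 20 passed the filter. In labelled ERBB2 17 of them fell and 2 rose, with a median log2 difference of -1.13, and with EGF 15 fell and 3 rose, with a median of -1.47. FBXO32, a ubiquitin ligase subunit of muscle atrophy, fell from 1034 ± 70.1 in vector to 25.19 ± 10.8 in labelled ERBB2 and 39.41 ± 1.98 with EGF. PDK4, which blocks entry of pyruvate into the citric acid cycle, fell from 422.7 ± 14.8 to 26.96 ± 11.8 and 38.78 ± 2.07. TXNIP, an arrestin that lowers glucose uptake, fell from 3909 ± 120.0 to 313.7 ± 9.01 and 1365 ± 37.9, and was lower in labelled ERBB2 than with EGF by a difference of -2.07 (limma adjusted p = 8.805e-14). CITED2 fell by 2.80 on the log2 scale in labelled ERBB2. The repressor BCL6 differed from vector by -2.52 in labelled ERBB2 and by -2.03 with EGF. CCNG2, an atypical cyclin of quiescent cells, was lower in labelled ERBB2 than with EGF (-1.11). In that comparison 9 of the 20 were lower and 4 higher: CDKN1A, which encodes the cell cycle inhibitor p21 (1.13), the receptor ERBB3 (0.80), GADD45B (0.79) and BCL2L11, which encodes the death protein BIM (0.50). All 4 had fallen in both groups against vector, and further with EGF.

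A few listed targets went the other way. GADD45A, a stress gene, and TRIB1, a pseudokinase, were the 2 that rose in labelled ERBB2, by 0.79 and 1.07. With EGF they rose by 0.945 and 1.96, the second from 102.7 ± 6.65 to 447.0 ± 25.2. BNIP3, a mitophagy receptor also known as a hypoxia gene, was the third that rose with EGF (0.65, limma adjusted p = 1.275e-05). In labelled ERBB2 it fell by 0.84 (limma adjusted p = 2.314e-07), and the direct difference was -1.49 (limma adjusted p = 2.881e-10).

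Of 19 ligands and adaptors of the insulin and IGF route 16 passed the filter. In labelled ERBB2 3 of the 16 were called, with EGF 4 and between the 2 groups 2, beside the 45.8%, 36.1% and 28.8% of all genes. In labelled ERBB2 3 fell and none rose: IGF2R, the receptor that clears IGF2 (-1.02), and GRB10 (-0.51) and GRB14 (-0.75), adaptors that restrain the insulin receptor. With EGF 3 fell, IGF2R (-0.70), the docking protein GAB1 (-0.81) and GRB10 (-0.42), and PTPN11, the phosphatase SHP2, rose (0.25). The GRB10 call ended with the mean of all its probe sets in labelled ERBB2 (adjusted p = 0.0539) and with equal array medians for EGF (adjusted p = 0.07928), and that of PTPN11 under 6 of 20 alternatives (adjusted p between 0.0004777 and 0.3711), among them dropping vector replicate 3 (0.238), EGF replicate 1 (0.22) or EGF replicate 3 (0.227). Labelled ERBB2 was lower than EGF for GRB14 (-0.66) and IGF2R (-0.32), the second a call lost on dropping labelled ERBB2 replicate 3 (-0.282) or EGF replicate 3 (-0.287), without a variance trend and on averaging its probe sets (-0.015, adjusted p = 0.9475).

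Subunits and phosphatases of PI3K moved in both directions, with 9 of 13 listed genes past the filter. In labelled ERBB2 5 fell and 1 rose, and with EGF 2 fell and 2 rose, where 45.8% and 36.1% of all genes were called. INPP5D, which encodes the lipid phosphatase SHIP1, fell from 248.1 ± 38.7 to 77.04 ± 9.11 (-1.50), and PIK3R1, the regulatory subunit p85 alpha, from 800.2 ± 56.9 to 448.5 ± 20.0 (-0.81). PHLPP1 (-0.59), INPPL1 (-0.61) and PIK3R3 (-0.39) also fell, and PHLPP2 rose by 1.11, although PHLPP1 and PHLPP2 both encode phosphatases that act on AKT. The calls of INPPL1 and PIK3R3 ended under 8 and 9 of 20 alternatives. For INPPL1 these include dropping vector replicate 3 (-0.376) or labelled ERBB2 replicate 1 (-0.412) or 3 (-0.618), and for PIK3R3 vector replicate 1 (-0.356) or 2 (-0.333) or labelled ERBB2 replicate 1 (-0.334) or 2 (-0.39). With EGF INPP5D (-1.42) and PIK3CD (-0.72) fell, and INPP4B (0.63) and PIK3R1 (0.31) rose. The PIK3R1 call with EGF ended without a variance trend and with the mean of its probe sets (highest adjusted p = 0.5101), and that of PIK3CD with the mean of its probe sets (0.07277). PIK3R1 was lower in labelled ERBB2 than with EGF by a difference of -1.12 (limma adjusted p = 8.552e-09), INPP4B was lower (-0.50) and PHLPP2 higher (0.92). The INPP4B call ended without EGF replicate 3 (-0.47, adjusted p = 0.05252) and on averaging its probe sets (adjusted p = 0.06213).

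Of 21 genes of the AKT and mTORC1 arm 19 passed the filter. In labelled ERBB2 8 fell and 2 rose, and with EGF 6 fell and 3 rose, so that 10 and 9 of the 19 were called beside 45.8% and 36.1% of all genes. SGK1, a kinase that like AKT phosphorylates FOXO3, fell from 1521 ± 98.3 in vector to 444.1 ± 33.4 in labelled ERBB2 (-1.74) and 579.5 ± 23.1 with EGF (-1.37). TSC1 and TSC2, whose proteins hold mTORC1 off, fell in labelled ERBB2 by 0.76 and 0.84. EIF4EBP1, the translation inhibitor that mTORC1 inactivates, rose from 167.3 ± 12.8 to 1059 ± 142.0 in labelled ERBB2 (2.55, limma adjusted p = 7.159e-13) and 485.6 ± 52.8 with EGF (1.45, limma adjusted p = 6.429e-09). SESN2, the third sestrin, fell with EGF by 0.76 (limma adjusted p = 0.002212) and was at -0.21 without a call in labelled ERBB2. AKT1 rose by 0.54 in labelled ERBB2 and by 0.39 with EGF, the latter a call that ended without EGF replicate 1 (0.331, adjusted p = 0.05727). RPS6KB1, the third to rise with EGF (0.53), lost its call under 6 of 20 alternatives (highest adjusted p = 0.1735), among them dropping vector replicate 2 (0.323), EGF replicate 2 (0.46) or EGF replicate 3 (0.555). Against EGF, labelled ERBB2 was higher for EIF4EBP1 (1.10) and SESN2 (0.55) and lower for RPS6KB1 (-1.02), RICTOR (-0.51), SGK1 (-0.37) and DDIT4 (-0.37). The SESN2 call ended on dropping labelled ERBB2 replicate 1 (0.482) or 3 (0.517) or EGF replicate 1 (0.5) or 2 (0.531), and that of RPS6KB1 on averaging its probe sets (adjusted p = 0.0977).

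All 16 listed genes for proteins that bind, modify or export FOXO factors passed the filter. In labelled ERBB2 6 rose and 7 fell, where 20.8% of all genes rose and 25.0% fell. YWHAH, of the 14-3-3 family that holds phosphorylated FOXO in the cytoplasm, rose by 0.95 and SKP2, a ubiquitin ligase subunit that targets FOXO1, by 0.86. CREBBP, an acetyltransferase and coactivator, fell by 0.95, and FOXO6, the remaining FOXO gene, from 44.77 ± 4.14 to 19.2 ± 1.01 (-0.79, limma adjusted p = 0.007381). With EGF 6 rose and 1 fell, among them YWHAH (0.80), USP7 (0.53) and YWHAG (0.52) upward and CREBBP (-0.51) downward. Labelled ERBB2 was lower than EGF for 6 of the 16 genes, among them STK4 (-0.90) and YWHAE (-0.62), and higher for MAPK8 (0.66) and SKP2 (0.45). The calls of STK4 and YWHAE ended on averaging the probe sets of a gene (adjusted p = 0.2711 and 0.1407).

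**Figure D4:**
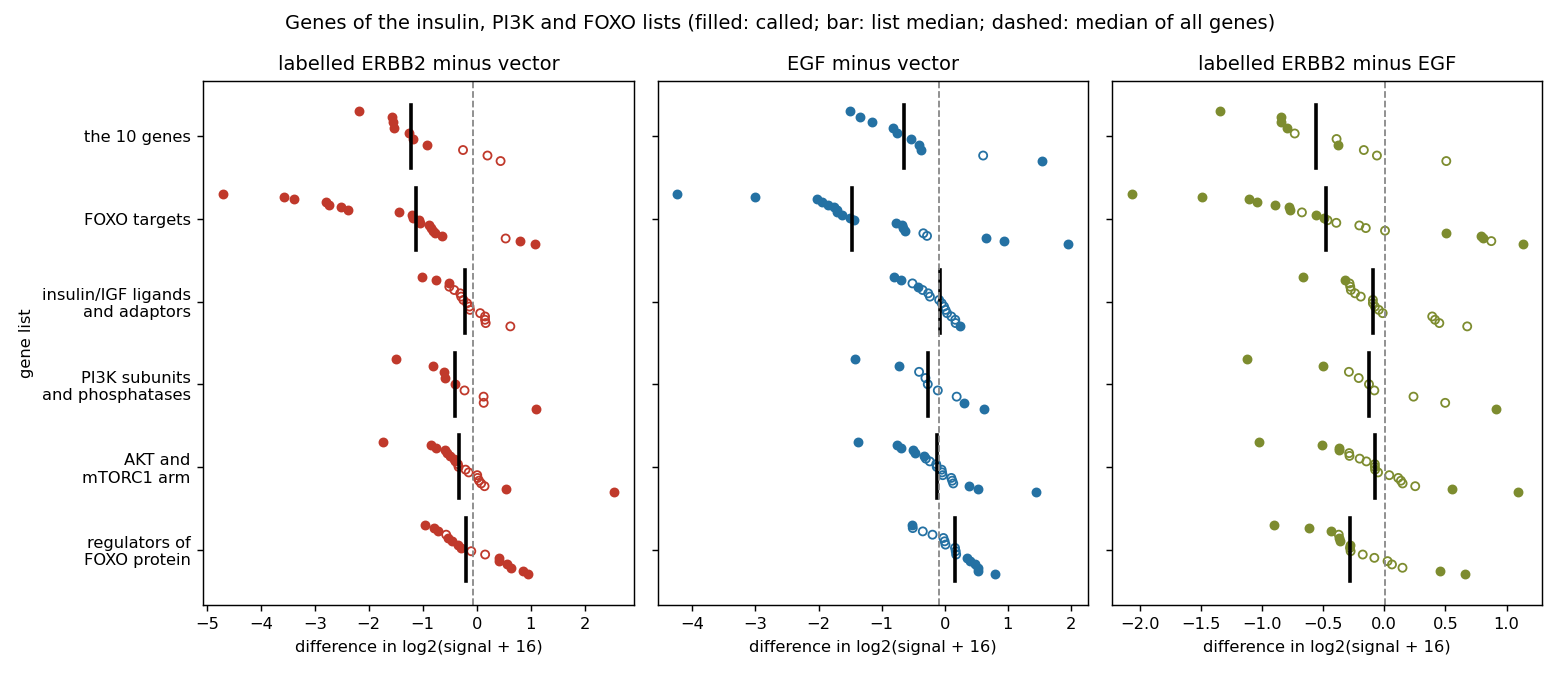
Difference in log2(signal + 16) (horizontal axes) of each gene past the filter in the 10 genes described here and in 5 lists of the pathway, for labelled ERBB2 minus vector, EGF minus vector and labelled ERBB2 minus EGF. Filled circles were called by limma, black bars are list medians and the dashed line is the median of all genes. In labelled ERBB2 minus vector every bar lies left of the line (-0.07). Those of the 10 genes (-1.21) and of the FOXO targets (-1.13) lie farthest, and the other 4 lie between -0.39 and -0.19.

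The genes whose values ran closest to a member were named for the 3 members with the largest range of group means on the log2(signal + 16) scale. Likeness was the root mean square difference over the 9 arrays between log2 values, each relative to its own vector mean, among 13618 genes outside the lists. Closest to FOXO1 were the laminin subunit LAMB1 (0.13) and the transcription repressor NFIL3 (0.15). LAMB1 read 2709 ± 89.8 in vector, 591.4 ± 9.21 in labelled ERBB2 and 974.2 ± 68.0 with EGF. Closest to SESN1 were the semaphorin SEMA3C (0.13) and RNF39 (0.16), and SEMA3C read 1103 ± 28.7, 387.5 ± 37.9 and 415.8 ± 8.36. Closest to SESN3 were PTGFR, a prostaglandin receptor (0.16), and the NF-kB subunit REL (0.21). The 9 arrays form 3 groups, so the measure mostly compares group means.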

How the data were processed

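The deposited values are intensities (signals) on a linear scale that the authors computed with MAS5 per the submitters' processing notes; neither its version nor its settings were given. All 9 arrays had the same 2% trimmed mean, 100.03, as scaling of whole arrays gives. Such scaling partly absorbs a shift of many genes one way, and the number of arrays limits the precision. Between 44.1% and 50.6% of signals per array were under 16. Groups and replicate numbers came from the titles. Same-numbered arrays deviated together in no pair of groups (correlations of deviations between -0.03 and 0.02). Samples handled side by side without a strong shared effect would give the same. Whether equal numbers mark pairs is therefore unknown, and the main fit used no pairing.

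Signals were analysed as log2(signal + 16). After leaving out 62 Affymetrix control probe sets and probe sets at or below the 40th percentile of mean log2 value (a signal of 10.6), 32769 were tested in R 4.3.3 with limma 3.58.1, fitting 3 group means to the 9 arrays and moderating variances along a trend with mean signal. The script was tested on simulated data. A gene was read from its brightest probe set. Of the array's probe sets 41097 were annotated to 1 gene symbol, 1801 to more and 11777 to none. All 10 members matched RefSeq by Entrez number. Probe positions were not given.

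The members, the lists and the motifs were chosen with earlier results of these data known, and the motifs after the windows had been read. The text names all members, up to 4 called list genes per comparison with the largest difference and groups that do not overlap, the 2 genes most alike for 3 members, and genes in counts of 5 or fewer, chosen after their values were seen. The alternatives were another number added before log2 (1 or 64), another filter (none or the 60th percentile), quantile normalization, arrays set to equal medians, variances without a trend, array weights, a fit of just the pair of groups compared, a block for the replicate number, dropping each array in turn and averaging the probe sets of a gene.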

Additional observations from a re-analysis of the deposited data

How the results depend on the processing

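In labelled ERBB2 against vector the count of the 10 genes called was 7 without any of the 9 arrays in turn. With EGF it was 6 to 9 where the main value was 9, and in labelled ERBB2 against EGF 5 to 6 where it was 5. With equal array medians 4 of the 10 genes were called with EGF, namely FOXO1, FOXO3 and SESN1 lower and IRS1 higher. That scaling moved the median of all probe sets with EGF from -0.11 to 0.05 and the share of rises among calls from 44.8% to 67.5%. The other falls with EGF kept their sign there without a call: INSR -0.378, IGF1R -0.222, IRS2 -0.244, PIK3IP1 -0.6 and SESN3 -0.653. With quantile normalization IGF1R (-0.422) and IRS2 (-0.463) were called and INSR (-0.466), PIK3IP1 (-0.595) and SESN3 (-0.655) were not. In labelled ERBB2 against EGF, equal array medians moved the share of higher calls from 48.8% to 31.8%. Over all probe sets, counts lay between 11327 and 12617, 7714 and 9746, and 6216 and 7856 without 1 array, in the order of the comparisons. Without labelled ERBB2 replicate 3 the uncalled differences of FOXO4 and SESN1 from EGF turned to 0.047 and 0.026, and without 1 array they ran from -0.456 and -0.136 to those values. With the replicate number as a block 7, 9 and 6 of the 10 genes were called, against 7, 9 and 5, and 12551, 9312 and 7618 probe sets, against 12689, 9445 and 7792; the added gene was SESN3. Of 30 differences of the 10 genes 19 kept their direction and side of the threshold under every alternative that gave a value, as did 12 of 18 called ones on further probe sets and 55 of 70 of the list genes named. The dimmest probe sets gave no value with the filter at the 60th percentile. Signal near background limits FOXO4, PIK3IP1 and SESN3. IRS1 was similarly dim in vector, with a mean of 38.68 beside 37.92 for PIK3IP1 and 51.86 for SESN3.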
